A study of Mus musculus with 16 samples.

Results

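The 10 genes Actn2, Actn3, Myot, Myoz1, Myoz2, Ldb3, Tcap, Csrp3, Ttn and Des encode proteins of the sarcomere, the contractile unit of striated muscle, and were compared between brown and white fat. They were taken as the probe sets of the array whose platform annotation names exactly 1 of these genes, which gave 19 of 45101 probe sets and 10 of 18194 genes. Of the 10 genes, 6 had 1 probe set, Myoz1 and Des had 2, Ldb3 had 3 and Ttn had 6. RNA of interscapular brown adipose tissue (BAT) and of subcutaneous white adipose tissue (sWAT) from LACA mice, a laboratory stock, had been hybridized to 16 Affymetrix mouse expression arrays, 8 per tissue. Each tissue had 4 numbered replicates with 2 arrays each, 1 titled biological and 1 titled technical. All mice were labelled male, were untreated and ate standard chow, and their age is not given in the sources used here. The tissues were dissected whole, so more cells of a type and more RNA per cell cannot be told apart in these values.

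Each sarcomere ends at the Z-disc, where actin filaments of neighbouring sarcomeres are crosslinked by alpha-actinin. Around this lattice sit adaptor proteins that bind alpha-actinin, the cap protein that holds the end of titin, and desmin filaments that tie neighbouring Z-discs together. Titin runs from the Z-disc to the M-line in the middle of the sarcomere, where the thick myosin filaments are held in register. None of the 10 genes encodes a protein of the M-line alone, so M-line genes were counted as a list of their own. These genes are known from skeletal and heart muscle, and desmin also from smooth muscle.

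The deposited values are log2 intensities that the authors set relative to each probe set's own median in the 16 samples. They give differences between samples and not the level of a gene, so no gene's level can be set against another's. After averaging the array pair of every replicate, limma estimated BAT minus sWAT, blocking on the replicate number. Values with ± are log2 differences with their standard error (n = 4 per tissue), a gene is the mean of its probe sets, and a gene was called at an adjusted p under 0.05. The labels do not say whether the replicates are separate mice, so p-values measure the spread between these samples only.

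Before the results, 3 features of the arrays need to be known. Signal from the 5' end of the control transcripts Gapdh and Actb, relative to their 3' end, was low on the technical array of BAT replicate 1 (-3.56, log2) and on the biological array of sWAT replicate 3 (-4.79), while the other arrays had -1.23 to 0.46. Xist stood at 5.74 to 6.36 in BAT replicates 1 to 3 and at -0.26 in BAT replicate 4, against -0.27 to -0.11 in sWAT, although all mice were labelled male. Genes of the Y chromosome (Uty, Kdm5d, Eif2s3y) averaged -1.98, -2.17, -2.33 and 0.18 in BAT replicates 1 to 4, against 0.20 to 0.39 in sWAT. These values go against BAT and sWAT of numbers 1 to 3 being from the same mice, which the block by replicate number takes as given, and without the block all 10 genes were also called higher. With or without the block, the contrast sets BAT replicates 1 to 3, with high Xist, against sWAT replicates that all had low Xist. In these replicates sex and tissue cannot be told apart, and the part of sex in any difference was not tested. Of the brown adipocyte markers 10 of 10 were higher in BAT (21.0% of all genes). They ran from Prdm16 (0.80 ± 0.18) to Ucp1 (7.58 ± 0.49). Of the measured lymphocyte markers 5 of 5 were lower in BAT (17.5% of all genes). The methods' paired t-test over 4 replicate pairs called 5 of the brown adipocyte markers higher and 3 of the lymphocyte markers lower.

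All 10 genes were higher in BAT than in sWAT, where 21.0% of all genes tested were called higher. At least 2-fold higher were 9 of the 10 (7.13% of all genes), and at least 10-fold higher were Myot, Actn3, Csrp3 and Myoz2 (0.319% of all genes). The median log2 difference of the 10 was 3.14, against 0.15 over all genes. In each of the 10 the lowest BAT replicate lay above the highest sWAT replicate, as in 28.0% of all genes. The genes were chosen with earlier results of these arrays known, so these counts describe them and were given no test of their own. General markers of skeletal muscle moved with them: of 29 genes of muscle fibres that are not among the 10, 28 were higher in BAT (median of the 29, 3.51 on the log2 scale). They averaged 1.42 to 3.07 in the BAT replicates, against -1.35 to -1.14 in sWAT. The exception was Cacna1s (-0.04 ± 0.35, adjusted p = 0.93). The methods' paired t-test over 4 replicate pairs called fewer of them higher. It called 8 of 11 fast fibre, 5 of 8 slow fibre and 6 of 10 general muscle markers, and 1830 of all 18194 genes. The part of skeletal muscle tissue in these differences was not tested. Centred values give no level, so whether any muscle marker is absent from a tissue cannot be stated.

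**Figure D1:**
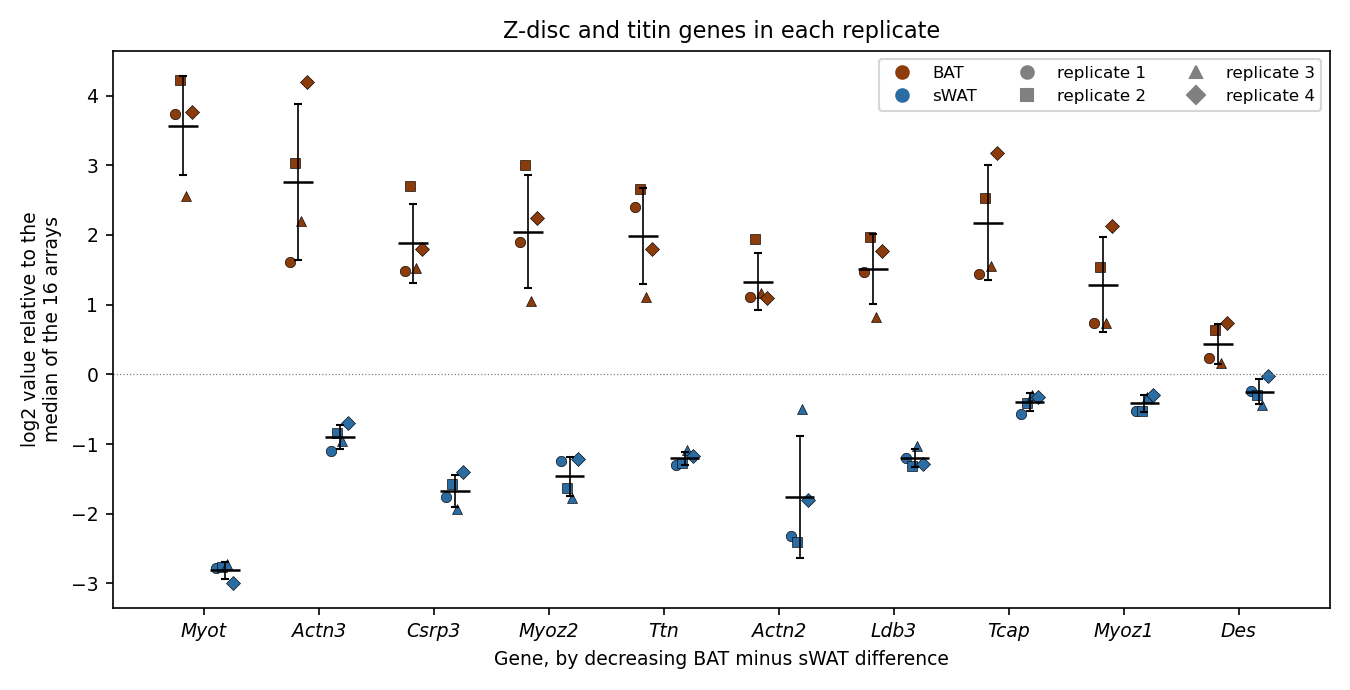
Log2 values of the 10 genes in each replicate of BAT (brown, left) and sWAT (blue, right), relative to the median of the 16 arrays. Symbols mark replicates 1 to 4, lines the mean and bars the SD of the 4, and in each gene all BAT replicates lie above all sWAT replicates.

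Since the genes moved together, their promoters were read for binding motifs of factors that act in muscle. RefSeq windows of 300 bases (250 before and 50 after the start, GRCm38.p6) were at hand for 6 of the 10 genes, in 8 windows. Searched on both strands were the E-box CANNTG, bound by MyoD and its relatives, the MEF2 site, bound by the Mef2 factors, and the CArG box, bound by serum response factor. The windows shown were chosen because they hold a MEF2 site (Ttn, Myoz2) or a CArG box (Ldb3), or because they belong to the gene with the smallest difference (Des). Capitals mark the motifs found:
Ttn (chr2:76982498-76982797, - strand): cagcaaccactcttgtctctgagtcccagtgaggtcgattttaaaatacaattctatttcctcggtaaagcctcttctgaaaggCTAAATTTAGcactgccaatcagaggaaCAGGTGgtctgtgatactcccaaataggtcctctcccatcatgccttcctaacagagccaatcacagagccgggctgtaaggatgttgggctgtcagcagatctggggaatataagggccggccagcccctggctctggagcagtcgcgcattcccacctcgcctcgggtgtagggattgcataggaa
Myoz2 (chr3:123034938-123035237, - strand): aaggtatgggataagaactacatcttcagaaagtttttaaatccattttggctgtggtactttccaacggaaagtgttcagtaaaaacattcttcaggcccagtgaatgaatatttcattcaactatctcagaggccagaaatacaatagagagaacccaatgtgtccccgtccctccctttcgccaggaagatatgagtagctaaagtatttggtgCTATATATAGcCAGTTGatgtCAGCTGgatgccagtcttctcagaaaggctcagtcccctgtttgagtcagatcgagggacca
Ldb3 (chr14:34588632-34588931, - strand): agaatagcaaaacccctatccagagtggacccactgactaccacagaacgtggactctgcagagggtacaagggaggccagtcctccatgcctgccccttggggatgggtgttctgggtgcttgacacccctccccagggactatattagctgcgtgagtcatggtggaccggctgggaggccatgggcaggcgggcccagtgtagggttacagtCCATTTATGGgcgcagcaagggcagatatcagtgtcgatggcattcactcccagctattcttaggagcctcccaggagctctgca
Des (chr1:75360042-75360341, + strand): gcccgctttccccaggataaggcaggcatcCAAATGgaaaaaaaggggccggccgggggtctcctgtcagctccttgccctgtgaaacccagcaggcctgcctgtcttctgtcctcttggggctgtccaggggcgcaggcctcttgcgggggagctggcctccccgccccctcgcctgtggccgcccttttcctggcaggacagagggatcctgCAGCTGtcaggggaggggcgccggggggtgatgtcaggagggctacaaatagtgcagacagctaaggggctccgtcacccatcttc
The MEF2 site of Ttn begins at position -166 and that of Myoz2 at -33, counted from the start, and the CArG box of Ldb3 begins at -35. A MEF2 site was present in 2 of the 8 windows (Ttn and Myoz2) and in 3.19% of all 32851 windows, and a CArG box in 2 of the 8, overlapping windows of Ldb3 that hold the same site, and in 1.63% of all windows. An E-box was present in 6 of the 8 windows, a share near the 72.3% of all windows. No 2 motifs of different kinds overlapped in these windows. A MEF2 site was also present in 5 of 26 windows of other Z-disc genes, 3 of 12 of M-line genes, 3 of 10 of fast fibre genes and 1 of 11 of slow fibre genes. In these lists, in the same order, a CArG box was present in 2, 4, 1 and 1 windows. A match describes these letters and is not evidence of binding.

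The alpha-actinins, which crosslink actin at the Z-disc, were both higher in BAT. Actn3, the isoform of fast fibres, stood at 1.61, 3.03, 2.20 and 4.20 in BAT replicates 1 to 4, and at -1.10, -0.83, -0.96 and -0.69 in sWAT replicates 1 to 4. Its highest BAT value was that of replicate 4, and the difference was 12.6-fold (3.66 ± 0.33, adjusted p = 2.7e-04). Actn2, the isoform of heart and of all skeletal fibres, stood at 1.11, 1.94, 1.16 and 1.10 in BAT, and at -2.32, -2.41, -0.50 and -1.80 in sWAT. The highest sWAT value of Actn2 was that of replicate 3, on both arrays (-0.83 and -0.18), and its sWAT values spread more than its BAT values (SD 0.88 against 0.41 in BAT). The difference was 8.50-fold (3.09 ± 0.38, adjusted p = 1.0e-03), and the methods' t-test over 4 pairs did not call it (adjusted p = 0.055). Alpha-actinins also exist outside muscle. Actn1, the alpha-actinin of non-muscle cells, was lower in BAT (-0.82 ± 0.13, adjusted p = 0.0025), with probe sets from -1.93 to -0.11, and Actn4 had 0.47 ± 0.35 (adjusted p = 0.30).

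Myot and Ldb3 encode adaptors that bind alpha-actinin. Myot, myotilin, had the largest difference of the 10 genes, 83.4-fold (6.38 ± 0.27, adjusted p = 2.7e-05). Among all 18194 genes it was the 4th largest in the direction of higher in BAT. Its single probe set stood at 3.74, 4.23, 2.56 and 3.76 in BAT, and at -2.78, -2.76, -2.71 and -2.99 in sWAT. The sWAT replicates of Myot lay within 0.27 log2 units of each other, and BAT replicate 3 was the lowest of the BAT replicates. Palld, a relative of Myot in many cell types, had 0.18 ± 0.15 (adjusted p = 0.36). Ldb3, also called ZASP or Cypher, stood at 1.47, 1.97, 0.82 and 1.77 in BAT, and at -1.19, -1.31, -1.02 and -1.28 in sWAT. Its difference was 6.54-fold (2.71 ± 0.23, adjusted p = 2.3e-04). All 3 probe sets of Ldb3 were called, at 3.27 ± 0.28 (1433783_at), 3.15 ± 0.32 (1416752_at) and 1.71 ± 0.17 (1451999_at). Pdlim1, which has the same kinds of domains and is found outside muscle, had -0.29 ± 0.11 (adjusted p = 0.078).

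The calsarcins Myoz1 and Myoz2 bind alpha-actinin and the phosphatase calcineurin, Myoz1 in fast fibres and Myoz2 in slow fibres and the heart. Myoz2 stood at 1.89, 3.01, 1.05 and 2.25 in BAT, and at -1.24, -1.63, -1.77 and -1.21 in sWAT, a difference of 11.4-fold (3.51 ± 0.28, adjusted p = 1.7e-04). The highest BAT replicate of Myoz2 was replicate 2. Myoz1 stood at 0.74, 1.54, 0.73 and 2.13 in BAT, and at -0.53, -0.52, -0.32 and -0.30 in sWAT, a difference of 3.26-fold (1.70 ± 0.24, adjusted p = 0.0017). Replicate 4 was its highest BAT replicate. Its 2 probe sets disagreed in size. The probe set 1460202_at stood at 1.15, 2.32, 1.47 and 3.82 in BAT, and at -0.67 to -0.45 in sWAT (2.77 ± 0.41, adjusted p = 0.0024). The probe set 1448636_at stood at 0.33, 0.77, 0 and 0.44 in BAT, and at -0.39 to -0.04 in sWAT (0.63 ± 0.18, adjusted p = 0.036). The call of 1448636_at ended in 6 of 13 alternatives, among them each fit without replicate 1, 2 or 4 (log2 differences 0.61, 0.46 and 0.68). For the gene, the methods' t-test over 4 pairs (adjusted p = 0.059) and the scaling of arrays to Gapdh and Actb (adjusted p = 0.063) ended the call. The third calsarcin, Myoz3, had 0.34 ± 0.14 (adjusted p = 0.10).

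Titin, the giant protein that spans the sarcomere from the Z-disc to the M-line, was 9.18-fold higher in BAT as the mean of its 6 probe sets (3.20 ± 0.28, adjusted p = 2.4e-04). Ttn stood at 2.40, 2.66, 1.11 and 1.80 in BAT, and at -1.30, -1.27, -1.09 and -1.17 in sWAT. Its probe sets fell into 4 with a large difference and 2 with a small one. The large differences were 4.62 ± 0.33 (1444083_at), 4.58 ± 0.28 (1427445_a_at), 4.18 ± 0.53 (1444638_at) and 4.14 ± 0.29 (1427446_s_at). The probe set 1431928_at had 1.30 ± 0.21 (adjusted p = 0.0033). The last, 1446450_at, stood at 0.71, 0.19, -0.28 and 0.23 in BAT and at -0.25 to -0.10 in sWAT, and did not pass (0.37 ± 0.18, adjusted p = 0.15, interval -0.05 to 0.78). Where these probe sets lie in the Ttn transcript was not determined here. The probe sets with large differences also varied differently among BAT replicates. The probe set 1444638_at stood at 4.20 and 4.38 in BAT replicates 1 and 2 and at 1.35 and 2.02 in BAT replicates 3 and 4, against -1.37 to -1.09 in sWAT. The probe set 1427445_a_at stood at 3.13, 3.42, 1.79 and 2.82 in BAT, and at -1.86 to -1.73 in sWAT.

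Tcap, telethonin, caps the titin molecules at the Z-disc, and Csrp3, the muscle LIM protein, binds there to alpha-actinin and telethonin. Tcap stood at 1.44, 2.53, 1.55 and 3.18 in BAT, and at -0.57, -0.41, -0.29 and -0.32 in sWAT. Replicate 4 was its highest BAT replicate, and the difference was 5.95-fold (2.57 ± 0.28, adjusted p = 5.6e-04). Csrp3 stood at 1.49, 2.70, 1.53 and 1.80 in BAT, and at -1.76, -1.58, -1.94 and -1.40 in sWAT. Its difference, 11.7-fold (3.55 ± 0.20, adjusted p = 5.4e-05), had the smallest standard error among the 9 genes that differed at least 2-fold. Of its relatives, Csrp2, known from smooth muscle and connective tissue cells, was also higher in BAT (1.74 ± 0.25, adjusted p = 0.0019), while Csrp1 had -0.28 ± 0.37 (adjusted p = 0.57).

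Des, the intermediate filament protein of muscle, had the smallest difference of the 10 genes, 1.61-fold (0.69 ± 0.13, adjusted p = 0.0053, interval 0.39 to 0.99). It stood at 0.23, 0.64, 0.16 and 0.73 in BAT, and at -0.24, -0.29, -0.45 and -0.02 in sWAT. The groups did not overlap, and the lowest BAT value lay close to the highest sWAT value. Of its 2 probe sets, 1426731_at was called (1.05 ± 0.21, adjusted p = 0.0097) and 1426732_at was not (0.33 ± 0.17, adjusted p = 0.17, interval -0.07 to 0.74). The call of 1426731_at ended in 3 of 13 alternatives, which were the technical arrays alone (0.65, adjusted p = 0.18), the methods' t-test over 4 pairs (adjusted p = 0.10) and the scaling to Gapdh and Actb (adjusted p = 0.54), and with the biological arrays alone it had 1.45. The probe set 1426732_at stood at 0.43, 0.26, -0.11 and 0.06 in BAT and at -0.33 to -0.03 in sWAT, and BAT replicate 3 lay within the sWAT range. Scaling arrays to Gapdh and Actb ended the call of Des (adjusted p = 0.95). Of the partners of desmin, Synm, synemin, was higher in BAT (1.67 ± 0.13, adjusted p = 1.4e-04), and so was Sync, syncoilin (0.36 ± 0.12, adjusted p = 0.046). Vim, the intermediate filament protein of connective tissue cells, had -0.50 ± 0.19 (adjusted p = 0.072).

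Over single probe sets, 17 of the 19 were called higher in BAT (15.1% of all probe sets), 16 at least 2-fold (6.10%) and 8 at least 10-fold (0.251%). The groups did not overlap in 17 of the 19, against 23.2% of all probe sets. The methods' t-test over 4 pairs called 9 of the 19.

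**Figure D2:**
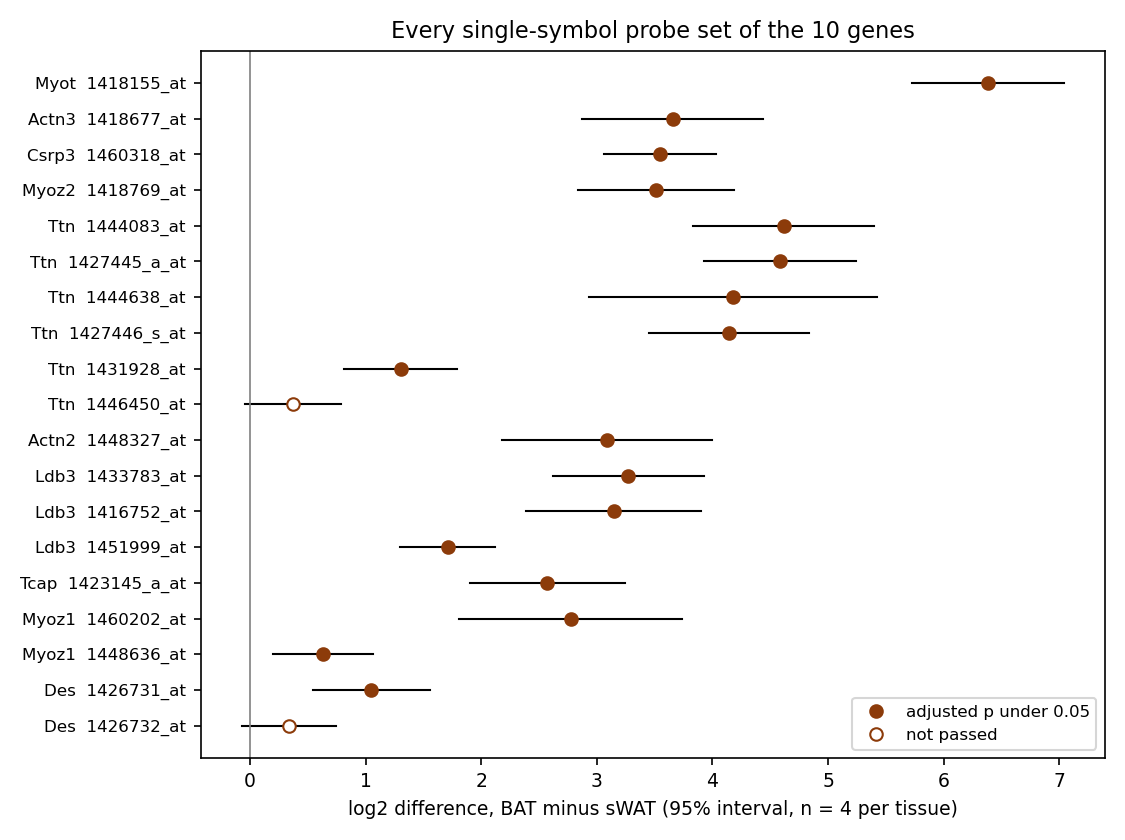
Log2 difference, BAT minus sWAT, of all 19 probe sets with its 95% interval (n = 4 replicates per tissue). Filled points passed at an adjusted p under 0.05 and open points, 1 of Ttn and 1 of Des, did not, and the probe sets of Ttn range from 0.37 to 4.62.

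The genes varied more among BAT replicates than among sWAT replicates. The SD of 9 of the 10 was larger in BAT, with a median of 0.68 in BAT and 0.15 in sWAT, while over all genes the median SD was 0.20 in BAT and 0.16 in sWAT. Actn2 was the exception. The mean of the 10 genes was 1.61, 2.42, 1.29 and 2.27 in BAT replicates 1 to 4, and -1.30, -1.30, -1.11 and -1.12 in sWAT. The mean of the 29 other muscle genes was 1.77, 2.69, 1.42 and 3.07 in the same BAT replicates, so replicates 2 and 4 were the higher ones in both.

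Which BAT replicate was highest differed between genes. Replicate 4 was the highest BAT replicate for Actn3, Tcap, Myoz1 and Des, and replicate 2 for Myot, Myoz2, Ldb3, Csrp3, Ttn and Actn2. Replicate 4 minus replicate 2 was 1.17 for Actn3, 0.65 for Tcap and 0.59 for Myoz1, and it was -0.90 for Csrp3, -0.86 for Ttn and -0.76 for Myoz2. Among markers of fibre types, 9 of 11 fast fibre genes were highest in replicate 4 and 7 of 8 slow fibre genes in replicate 2. The exceptions were Myh1 and Myh2 among the fast genes and Casq2 among the slow genes. Replicate 4 also stood apart in other markers: 8 of 10 general skeletal muscle markers were highest there, and 7 of 10 brown adipocyte markers were lowest there among the BAT replicates. Elovl3, a fatty acid elongase of brown fat, stood at 0.10 in BAT replicate 4 and at 5.89 to 6.86 in BAT replicates 1 to 3, and Ucp1 at 2.75 and at 4.33 to 4.53. Replicate 4 was also the only BAT replicate with low Xist (-0.26, against 5.74 to 6.36 in replicates 1 to 3). Genes of the Y chromosome averaged 0.18 in it, against -2.33 to -1.98 in replicates 1 to 3. The part of these differences in the order was not tested. Replicate 3 was the lowest BAT replicate for Myot, Myoz1, Myoz2, Ldb3, Ttn and Des, for all 8 slow fibre genes and for 7 of 11 fast fibre genes. Without the arrays of low 5' signal it was the lowest for 9 of the 10 genes, all but Actn2, and for all 8 slow and all 11 fast fibre genes. These are 4 replicates, and no test was made of the order.

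**Figure D3:**
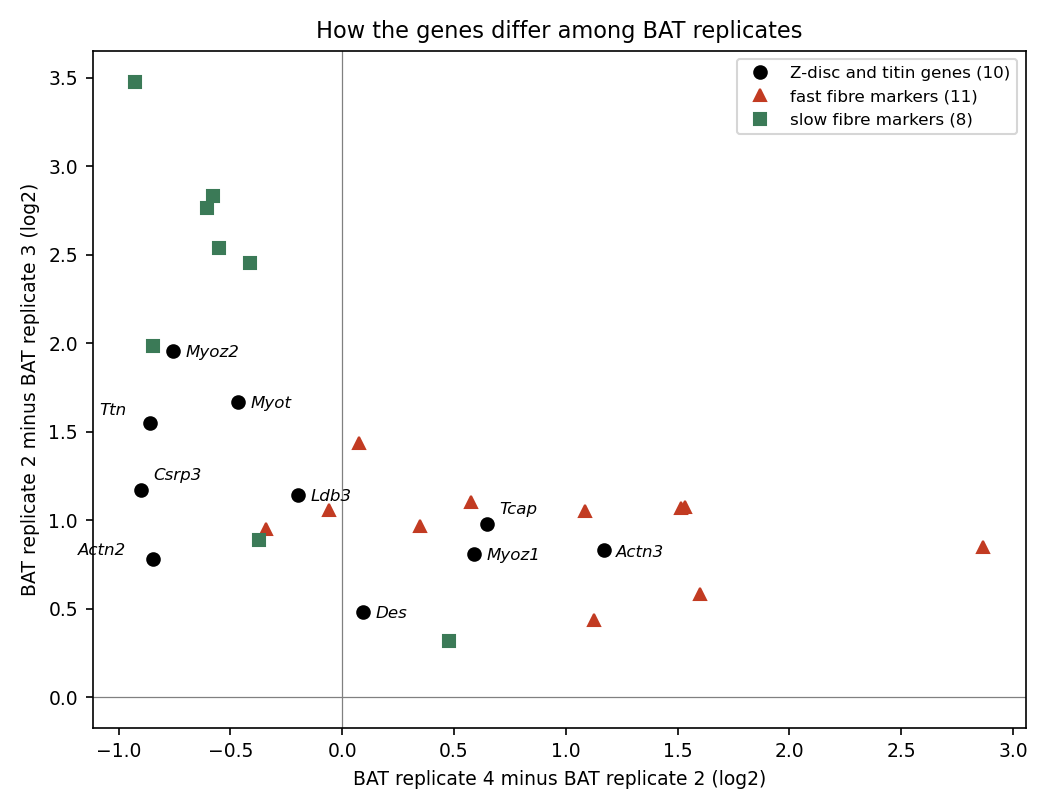
Each point is a gene, placed by its log2 difference of BAT replicate 4 minus BAT replicate 2 (horizontal) and of BAT replicate 2 minus BAT replicate 3 (vertical), axes that share replicate 2. Actn3, Tcap, Myoz1 and Des lie right of 0, as do 9 of 11 fast fibre markers, and the other 6 genes lie left of 0, as do 7 of 8 slow fibre markers.

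The 2 arrays of a replicate differed most in BAT replicate 1. There the 10 genes averaged 2.05 on the biological array and 1.17 on the technical array, the one with low 5' signal, with a mean absolute gap of 1.06, against 0.10 to 0.33 in the other BAT replicates. Tcap stood at 2.65 on the biological and 0.23 on the technical array of this replicate, Actn2 at 2.05 and 0.18, and Actn3 at 2.57 and 0.66. Myot went the other way, at 3.29 and 4.18. In sWAT replicate 3 the mean absolute gap was 0.41, against 0.10 to 0.23 in the other sWAT replicates. Without these 2 arrays all 10 genes were called, with log2 differences of 0.75 for Des to 6.33 for Myot. Actn2 then stood at 2.05 in BAT replicate 1, close to the 1.94 of replicate 2.

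**Figure D4:**
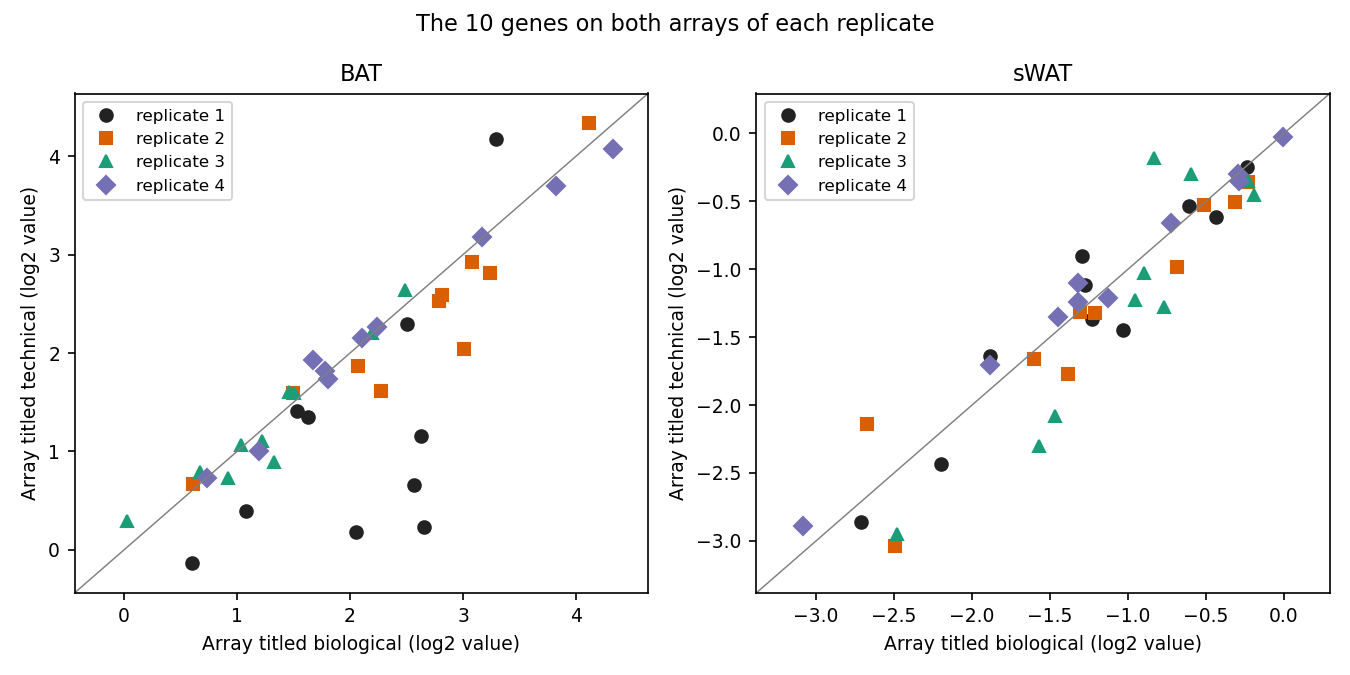
The 10 genes on both arrays of each replicate, with the array titled biological on the horizontal and the array titled technical on the vertical axis (log2 values), for BAT (left) and sWAT (right). On the diagonal both arrays agree, and in BAT replicate 1 most points lie below it, down to 0.23 against 2.65 for Tcap.

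Since all BAT replicates lay above all sWAT replicates in each gene, the difference had to be positive in all 4 replicate numbers. The median over the 10 genes was 2.92, 3.89, 2.02 and 3.13 for numbers 1 to 4. For number 4, the only one whose BAT replicate lacked the high Xist, the differences ran from 0.75 for Des to 6.74 for Myot, and for numbers 1 to 3 they ran from 0.48 for Des to 6.99 for Myot. Number 4 is a single replicate number, and its BAT replicate also stood apart in muscle and brown adipocyte markers. The numbers are not shown to pair the samples, and the part of sex was not tested.

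Other proteins of the Z-disc were mostly higher in BAT too. Of 20 measured genes of this list, 15 were higher (21.0% of all genes) and 10 of them at least 2-fold (7.13%). In the list 0 were lower (17.5% of all genes) and 5 missed the threshold. At an unadjusted p under 0.05, limma had 1 gene lower, Nebl, and the methods' t-test over 4 pairs called 0 lower after adjustment. The median log2 difference was 0.96, against 3.14 for the 10 genes above. Neb, nebulin, which runs along the thin filament from the Z-disc, had the largest difference (4.89 ± 0.42, adjusted p = 2.4e-04), and stood at 2.24, 3.09, 1.41 and 1.90 in BAT, against a mean of -2.73 ± 0.59 in sWAT (SD, n = 4). Pdlim3, a relative of Ldb3, had 2.03 ± 0.22 (adjusted p = 6.1e-04). Nebl, a relative of nebulin with a role in the heart, had the lowest value and did not pass (-0.32 ± 0.14, adjusted p = 0.099), and neither did Synpo2, Pdlim7, Myoz3 and Bag3. The gene means joined probe sets that disagreed: of the 4 probe sets of Synpo2, an actin-binding protein, 1 was lower in BAT (-1.94 ± 0.16, adjusted p = 2.4e-04) and 1 was higher (1.26 ± 0.36, adjusted p = 0.034), and of the 3 of Nebl 1 was lower (-0.74 ± 0.16, adjusted p = 0.011). The methods' t-test over 4 pairs called 9 genes of this list higher, and scaling to Gapdh and Actb left 3.

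M-line genes were higher in BAT as well, 9 of 11 measured (21.0% of all genes), 7 of them at least 2-fold (7.13%). Their median was 1.75 on the log2 scale. None was lower (17.5% of all genes), with a count of 0 by limma also at an unadjusted p under 0.05 and by the methods' t-test. The myomesins crosslink myosin filaments at the M-line. Myom1 stood at 1.23, 2.10, 1.11 and 1.90 in BAT, against a mean of -1.25 ± 0.09 in sWAT (SD, n = 4), a difference of 2.83 ± 0.19 (adjusted p = 1.0e-04). Myom2, the isoform of fast fibres, had 2.68 ± 0.15 (adjusted p = 5.2e-05), with probe sets from 0.27 to 5.08, and Myom3 had 0.99 ± 0.19 (adjusted p = 0.0061). Ckm, the muscle creatine kinase, part of which sits at the M-line, had the largest difference (3.01 ± 0.34, adjusted p = 6.9e-04). It was also counted among the general muscle markers. Obsl1 and Fhl2 did not pass, at 0.22 ± 0.13 and -0.23 ± 0.13 (adjusted p = 0.20 and 0.19). The methods' t-test over 4 pairs called 6 M-line genes higher, and scaling to Gapdh and Actb left 5.

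Of the 7 relatives of the 10 genes listed as non-muscle, 1 was higher, Csrp2, although it is also known from smooth muscle. Actn1 was the 1 that was lower, and 5 missed the threshold (median -0.28). Over all genes 21.0% were called higher and 17.5% lower, the shares to set beside each count in this paragraph. Among the relatives the methods' t-test over 4 pairs called 0 higher and 2 lower. Without replicate 3 the count of lower genes was 3. Markers of other muscle types had smaller differences. Of 7 heart markers limma called 0 higher (2 at an unadjusted p under 0.05, and 0 by the methods' t-test over 4 pairs) and 1 lower, Tnni3, the troponin I of the heart (-0.62 ± 0.15, adjusted p = 0.016), with a median of 0.28. The methods' t-test over 4 pairs called 0 heart markers lower, so it ended the call of Tnni3. The others were Tnnt2 (0.50 ± 0.35, at 1.98 in BAT replicate 4 and no more than 0.16 in BAT replicates 1 to 3), Myl7 (0.40 ± 0.16), Nppa (0.38 ± 0.13), Myl4 (0.28 ± 0.20), Myh6 (0.21 ± 0.13) and Nppb (0.10 ± 0.15). Of 6 smooth muscle markers 2 were higher, Cnn1, calponin (1.02 ± 0.17, adjusted p = 0.0038), and Acta2, an actin (0.48 ± 0.15, adjusted p = 0.042), and the methods' t-test over 4 pairs called 0 of them. Actg2 (0.49 ± 0.23), Smtn (0.46 ± 0.40), Myh11 (0.39 ± 0.21) and Tagln (0.07 ± 0.43) did not pass, with a median of 0.47 over the 6. The mean of the smooth muscle list was -0.25, 0.63, 0.66 and -0.03 in BAT replicates 1 to 4, against -0.62 to -0.01 in sWAT.

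**Figure D5:**
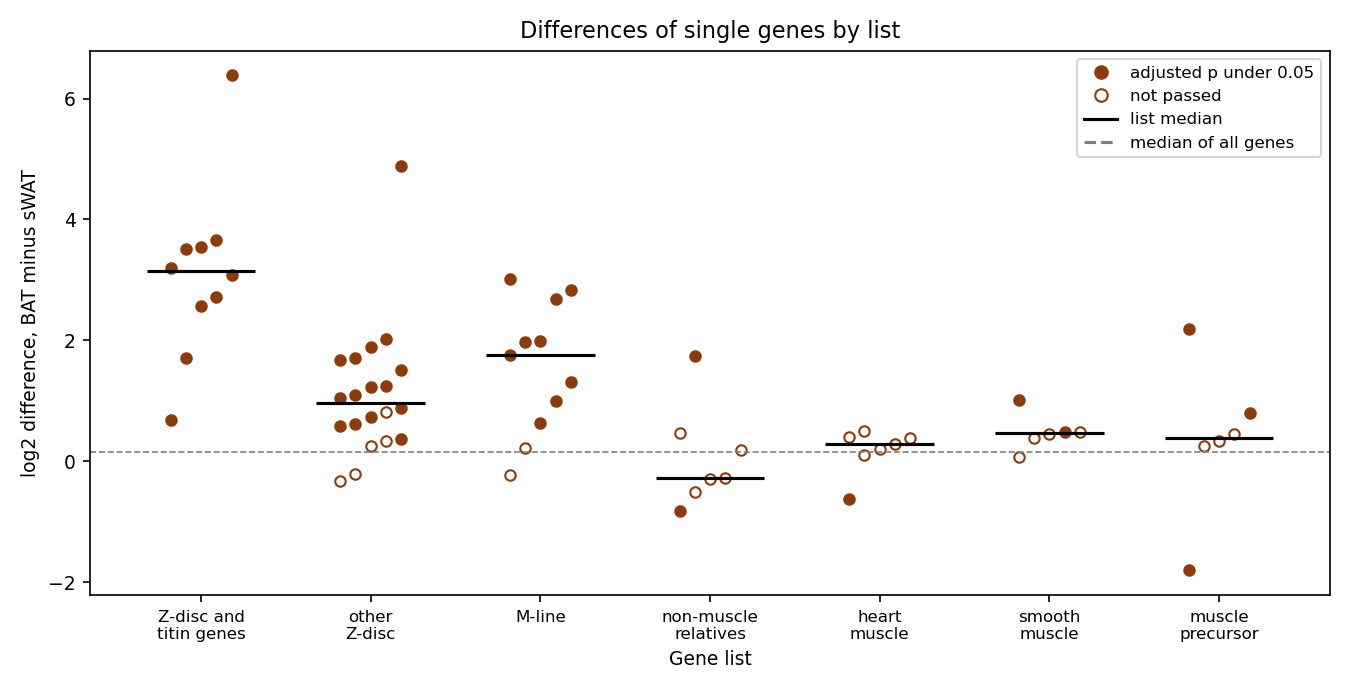
Log2 difference, BAT minus sWAT, of every measured gene of 7 lists, with filled points for genes that passed at an adjusted p under 0.05, open points for those that did not, a line at each list's median and a dashed line at the median of all genes (0.15). The 10 Z-disc and titin genes have a median of 3.14, against 1.75 for M-line genes, 0.96 for other Z-disc genes and -0.28 for non-muscle relatives. Csrp2, the relative that passed as higher, is also known from smooth muscle.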

How the data were processed

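Total RNA of sWAT and interscapular BAT was measured on Affymetrix mouse expression arrays. The authors processed the arrays in GeneSpring GX by RMA with quantile normalization and set the baseline to the median of all samples, so the deposited values are log2 values relative to that median, and the median over 16 arrays is 0 for all probe sets. A filter on dim probe sets could therefore not be applied.

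Array pairs were averaged per replicate. The contrast of BAT minus sWAT was estimated in R 4.3.3 by limma 3.58.1, using lmFit and eBayes and blocking on the replicate number, since the methods describe a paired test and both tissues of 4 mice, although the sex-linked genes go against this pairing for numbers 1 to 3. P-values were adjusted by Benjamini-Hochberg over 45101 probe sets, or over 18194 genes, a gene being the average of all probe sets that carry its symbol alone. Of the probe sets 34958 had 1 symbol, 932 several and 9211 none. The number of arrays limits the precision. All 10 genes and all their probe sets are named. Of the other Z-disc and M-line genes, those with the largest and smallest difference and the myomesins are named. All measured genes are named for the non-muscle relatives and for the heart, smooth muscle and muscle precursor markers. For the fibre type, general muscle, brown adipocyte and lymphocyte markers, counts and at most some genes are given. Markers of white adipocytes, macrophages, endothelium, nerve and epithelium were also fitted and are not described here. Further genes were chosen after their values were seen. The genes and lists were chosen with earlier results of these data known. Alternatives were the fit without the block, each replicate number left out, single arrays, the methods' paired t-test, other scalings of the arrays, the arrays of low 5' signal left out and the median over probe sets. The fit was tested on simulated data, with 100 probe sets of 45101 shifted by 1.5 and 100 by 3 on the log2 scale. It called 77% and 94% of them, beside 5 false calls, and without the block 88% and 97%, beside 10. The simulated noise was independent and normal, with no replicate effect, so these counts do not measure false calls in the real arrays. Motifs were searched with Python 3.11.15 and figures drawn with matplotlib 3.10.9.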

Additional observations from a re-analysis of the deposited data

Results flagged for a closer look

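Among the 10 genes in the 4 replicates of each tissue, 20 sets of 4 values were checked for a single replicate far from the others, and 1 was found, where chance gives about 1 in 20. Actn2 stood at 1.94 in BAT replicate 2, against 1.10 to 1.16 in the other BAT replicates. The value of BAT replicate 1 is the mean of 2.05 and 0.18 on its 2 arrays, the second of which has low 5' signal.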

How the results depend on the processing

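No difference of the 10 genes changed sign in 14 alternatives, and the call ended in 4 cases: Actn2 (3.09) and Myoz1 (1.70) with the methods' t-test over 4 pairs, and Myoz1 (1.71) and Des (0.70) with arrays scaled to Gapdh and Actb. That scaling raised the median standard error of all genes to 0.587, against 0.141 as deposited. Of its calls 41.8% were higher in BAT, against 54.5%. With it each of the 10 genes had the same standard error, 0.587, so their calls followed the size of the difference alone. The 2 scaling genes had differences of -1.28 and 1.27, BAT minus sWAT, of which the lower one passed at an adjusted p under 0.05 in limma and the higher one did not. Their mean was -1.02 in BAT replicate 1 and -1.14 in sWAT replicate 3, against 0.14 to 0.50 in the other replicates. Without 1 replicate number, 10 genes and 16 to 17 of the 19 probe sets were called, 10 to 15 other Z-disc genes, 8 to 9 M-line genes and 1 non-muscle relative were higher, 0 Z-disc and 0 M-line genes were lower, and 1 to 3 non-muscle relatives were lower. Without the replicate block, 10 genes and 17 probe sets were called and 17 other Z-disc genes, and 3 non-muscle relatives were lower. The deviations of BAT and sWAT replicates of equal number correlated across genes at -0.15, 0.08, -0.34 and 0.26, so the numbers are not shown to pair the samples. The methods' t-test over 4 pairs called 9 probe sets, 9 other Z-disc genes higher and 0 relatives higher and 2 lower, and over 8 array pairs 3 relatives were lower. With each array as a replicate, 1 other Z-disc gene and 3 relatives were lower. Centred arrays gave 2 relatives lower. Scaled to Gapdh and Actb, 3 other Z-disc and 5 M-line genes were higher, with 0 relatives higher and 0 lower. Without the 2 arrays of low 5' signal, 2 relatives were higher and 2 lower. Over all genes, 3812 were higher and 3177 lower in BAT, against 407 and 567 scaled to Gapdh and Actb, 1830 and 1737 with the methods' t-test over 4 pairs, 5955 and 3786 with it over 8 pairs, 7041 and 4316 with each array as a replicate, and 2338 and 2289 without replicate 2. The cause of these changes was not tested. Centred values give no signal over background, so weak probe sets cannot be told from strong ones.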

Other observations

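The factors that direct muscle formation differed in size of change. Pax7, Myf5 and Myod1, which mark muscle precursors, had log2 differences, BAT minus sWAT, of 0.33 ± 0.16, 0.44 ± 0.16 and 0.25 ± 0.13 and did not pass (adjusted p = 0.14, 0.065 and 0.17). Myog, a factor of differentiating muscle cells, had 0.80 ± 0.20 (adjusted p = 0.018). Myf6, a factor of mature fibres, was higher in BAT (2.19 ± 0.32, adjusted p = 0.0020), at 0.91, 2.14, 0.46 and 1.91 in BAT replicates 1 to 4 against a mean of -0.84 ± 0.13 in sWAT (SD, n = 4). Replicates 2 and 4 were its higher BAT replicates. The methods' t-test over 4 pairs called 0 of these factors higher, so it ended the calls of Myf6 and Myog. Mef2c, which acts in muscle and in lymphocytes, was lower in BAT (-1.80 ± 0.18, adjusted p = 3.9e-04), while 5 of 5 measured lymphocyte markers were lower in BAT as well, and their part in this difference was not tested.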
